A study of Mus musculus with 6 samples.

Results

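The miR-29 family was described here in primary mouse testicular peritubular myoid cells, the flat contractile cells of the seminiferous tubule wall. Its members were all rows of the deposited small RNA count table that carry the stems miR-29a, miR-29b, miR-29b-1, miR-29b-2 or miR-29c, either arm, which gave 7 of the 1573 known miRNA rows. They are 3 rows of the 3p arm (mmu-miR-29a-3p, mmu-miR-29b-3p and mmu-miR-29c-3p) and 4 rows of the 5p arm (mmu-miR-29a-5p, mmu-miR-29b-1-5p, mmu-miR-29b-2-5p and mmu-miR-29c-5p), named below without the mouse prefix. Cells of C57BL/6J mice had been cultured in serum-containing DMEM/F12 and were compared after 5 min with 50 nM endothelin-1 (ET1), a contractile peptide (ET1, n = 3 libraries), and without it (untreated, n = 3 libraries). Nothing in the labels ties a library to its own culture or animal, so the tests measure the spread between libraries, which can be technical.

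miRNAs are cut as a duplex from a hairpin precursor; the guide arm is kept in Argonaute and pairs with target mRNAs mainly through its seed, bases 2 to 8, while the other (passenger) arm is usually lost. In miR-29 the annotated guide arm is the 3p arm. Its best known targets are mRNAs of the extracellular matrix, among them fibrillar collagens, elastin and fibrillin, and miR-29 is lowered by TGF-β in fibroblasts and during organ fibrosis. Peritubular myoid cells lay down part of the basement membrane around the tubule, together with Sertoli cells, and contract to move sperm.

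The 3p arms are printed because they decide which row a tag can be counted in. The RefSeq table of GRCm38.p6 held a mature sequence for 7 of 7 rows. Capitals mark the seed, which is the same 7 bases in all 3:
miR-29a-3p: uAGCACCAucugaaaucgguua
miR-29b-3p: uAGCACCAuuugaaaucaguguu
miR-29c-3p: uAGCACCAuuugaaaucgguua

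Counted from 1 at the 5′ end, miR-29a-3p and miR-29c-3p differed by a single substitution, C10U. miR-29b-3p differed from miR-29a-3p by C10U, G18A, U21G and A22U, and was 23 rather than 22 bases long. It ended in AGUGUU, an ending that directs human miR-29b to the nucleus. On the strand as written, 2 of 1679 mature mouse miRNAs in the table ended in those letters (0.119%). No mature miRNA of the table outside the family had the seed of the 3p arms.

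The 5p arms are printed because, for miR-29b and miR-29c, they held more tags than the 3p arm. Capitals again mark bases 2 to 8:
miR-29a-5p: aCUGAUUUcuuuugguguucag
miR-29b-1-5p: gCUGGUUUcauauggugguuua
miR-29b-2-5p: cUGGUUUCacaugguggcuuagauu
miR-29c-5p: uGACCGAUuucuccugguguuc

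No seed was shared among the 4 arms, nor with the 3p arms. The annotated miR-29b-2-5p starts 1 base further in than miR-29b-1-5p, so its seed is shifted by 1 base. The precursor Mir29b-1 is shown whole because its 5p arm was the second largest row of the family, with both mature arms in capitals:
Mir29b-1: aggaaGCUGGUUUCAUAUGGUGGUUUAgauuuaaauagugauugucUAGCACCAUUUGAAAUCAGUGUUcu

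The family is encoded by 4 precursors at 2 loci (GRCm38.p6, 1-based). Mir29a (chr6:31062660-31062747) and Mir29b-1 (chr6:31063023-31063093) lie on the minus strand of chromosome 6, 275 bases apart. Mir29b-2 (chr1:195037040-195037120) and Mir29c (chr1:195037547-195037634) lie on the plus strand of chromosome 1, 426 bases apart. In GENCODE M21 both chromosome 1 precursors lie within an exon of the non-coding transcript A330023F24Rik, opposite an exon of Cd46 on the other strand. In the same annotation Mir29b-1 overlaps the edge of an exon of the lincRNA Gm27019, and Mir29a overlaps no other gene on its strand. Transcripts that reach beyond this annotation were not looked for. miR-29b-3p is the same sequence at both loci, so its tags could not be divided between them. The other 6 rows have 1 locus each.

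Library depth was 18127265 to 20895432 tags over all rows. Known miRNAs took 22.6% to 25.5% of the tags in ET1 libraries and 30.1% to 45.6% in untreated libraries, and rRNA fragments took 7.12% to 11.02% in ET1 and 3.22% to 5.63% in untreated libraries. Markers of smooth muscle (miR-143-3p, miR-145a-5p, miR-133a-3p) summed to 13048 to 15592 CPM (tags per 1000000 known miRNA tags, after TMM scaling) in ET1, against 20609 to 27934 CPM in untreated libraries. None of these 3 was at 0 in any library, and none passed in the main edgeR fit. The largest, miR-143-3p, had a log2 fold change of −0.93 (edgeR adjusted p = 0.101). miR-133a-3p stood at −1.53 (edgeR adjusted p = 0.072) and miR-145a-5p at −0.11 (edgeR adjusted p = 0.883). Endothelial markers (miR-126a, both arms) summed to 114 to 163 CPM in ET1, against 1107 to 1883 CPM in untreated libraries. Of the 2 endothelial rows miR-126a-3p fell (edgeR adjusted p = 0.00019) and miR-126a-5p did not pass. Leukocyte markers (miR-150-5p, miR-223-3p, miR-142a-3p) summed to 35.7 to 39.3 CPM in ET1, against 236 to 323 CPM in untreated libraries, a difference that lay in 1 of the 3. That was miR-150-5p, which fell to 24.7 ± 4.59 CPM in ET1, against 270.4 ± 51.2 CPM in untreated libraries (edgeR adjusted p = 0.00036). miR-223-3p did not pass (log2 fold change 0.29), and miR-142a-3p, too low to test, was higher in each ET1 library (1.40 to 2.96 CPM) than in any untreated library (0 to 1.01 CPM). Sertoli, red cell and epithelial sums overlapped between the groups, and germ cell markers (miR-34c-5p, miR-449a-5p, miR-883a-5p) summed to 128 to 489 CPM in ET1, against 60.4 to 120.1 CPM in untreated libraries. None of the 3 germ cell rows passed (edgeR adjusted p = 0.086 for miR-449a-5p, 0.366 for miR-34c-5p and 0.982 for miR-883a-5p). The highest germ cell sum was that of ET1 library 3, where miR-449a-5p stood at 363 CPM. miR-142a-3p was at 0 in untreated library 1, and the red cell marker miR-144-3p was at 0 in all 3 untreated libraries. The part of these shifts in the miR-29 values was not tested. In bulk libraries fewer cells of a type and less RNA per cell cannot be told apart.

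miR-29 was almost entirely miR-29a-3p. Over the 6 libraries the family held 272762 tags, of which 253484 (92.9%) were miR-29a-3p. miR-29b-1-5p followed with 16759 tags (6.14%), then miR-29c-5p with 1035, miR-29b-2-5p with 654, miR-29c-3p with 589, miR-29b-3p with 220 and miR-29a-5p with 21. miR-29a-3p ranked 25 to 34 among the known miRNAs of a library and miR-29b-1-5p 85 to 104, whereas the other 2 guide arms ranked 316 to 368 (miR-29c-3p) and 386 to 470 (miR-29b-3p). A tag stands for a whole miRNA, so tags were compared without a length term. How well each sequence is cloned was not calibrated, so these are ratios of tags.

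**Figure D1:**
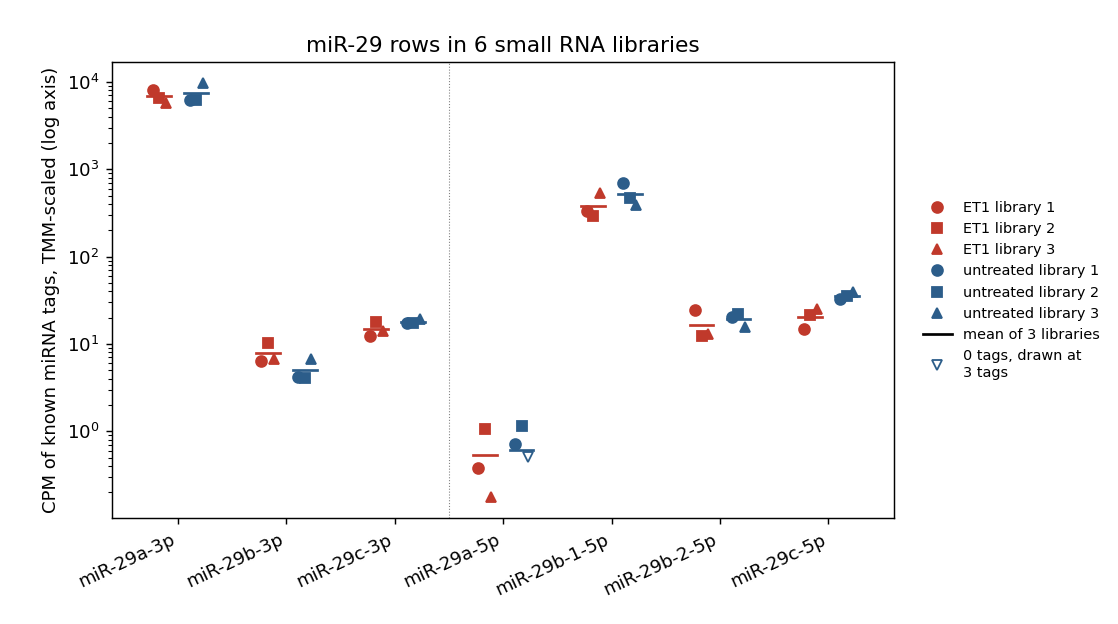
TMM-scaled CPM (log axis) of the 7 miR-29 rows, with 3p arms left of the dotted line and 5p arms right of it. Symbols are the 3 ET1 and 3 untreated libraries and lines are group means, which fall as low as 0.536 CPM (miR-29a-5p, ET1) and reach 7397 CPM (miR-29a-3p, untreated). A row without a tag is drawn at the level of 3 tags.

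Among the 3p arms alone, which share the seed, miR-29a-3p held 99.6% to 99.8% of the tags in every library. Of 18 seed families of known miRNAs with at least 3 rows and 1000 tags, miR-29 was the one whose largest member took the largest share, 99.7% over the 6 libraries against a median of 86.9% over the families. The family led by miR-34a-5p came next, at 99.5%. How many mismatches were allowed in counting was not given in the sources used here. With 1 base between miR-29a-3p and miR-29c-3p, the division of tags among the 3p rows is therefore uncertain, and miR-29c-3p tags counted as miR-29a-3p were not tested for.

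The family made up 0.985%, 0.746% and 0.747% of known miRNA tags in ET1 libraries 1, 2 and 3, against 0.610%, 0.558% and 0.972% in untreated libraries 1, 2 and 3. ET1 library 1 and untreated library 3 were high and nearly level, and the groups overlapped. Wilson 95% intervals, which cover counting error only, ran from 0.554% to 0.563% for the lowest library and from 0.976% to 0.994% for the highest. The means were 0.826% ± 0.137 in ET1 and 0.713% ± 0.225 in untreated libraries (SD, n = 3 each). As a share of all tags the order turned round, at 0.202% ± 0.0439 in ET1 and 0.261% ± 0.0287 in untreated libraries. In summed CPM after TMM scaling it did so too, at 7266 ± 1158 CPM in ET1 against 7997 ± 1886 CPM in untreated libraries. A sum over chosen rows was given no test.

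**Figure D2:**
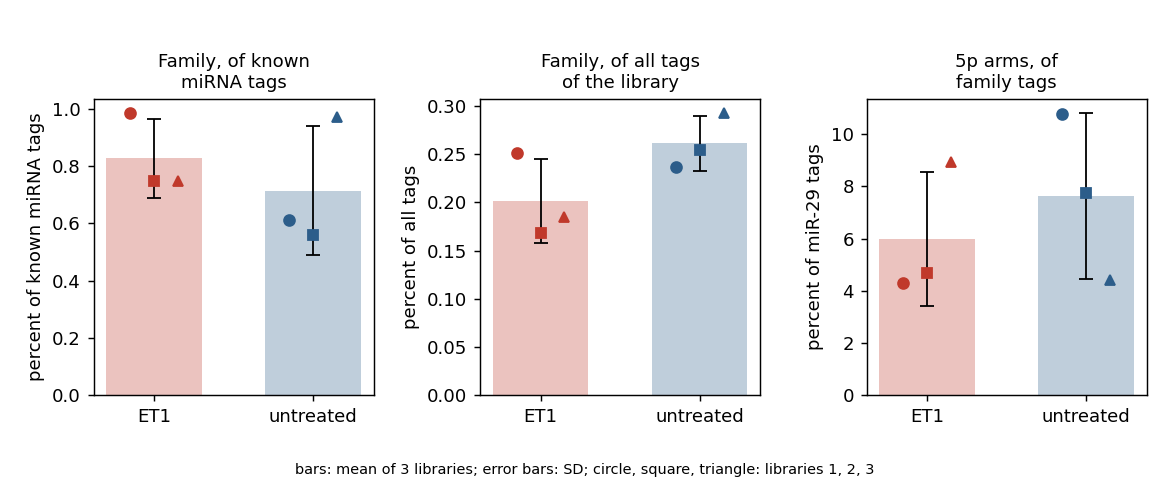
Share of miR-29 rows in known miRNA tags (left), in all tags of the library (middle), and share of the 5p arms in miR-29 tags (right), in percent, for ET1 and untreated cells. Bars are means of 3 libraries, error bars SD, and symbols single libraries. The groups overlap in each panel, and the means are 0.826% and 0.713% in the left panel but 0.202% and 0.261% in the middle one.

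miR-29a-3p, the guide arm that carried the family, stood at 8174, 6557 and 5741 CPM in ET1 libraries 1, 2 and 3, against 6205, 6289.7 and 9698 CPM in untreated libraries 1, 2 and 3. Untreated library 3 was the highest of the 6, the other 2 untreated libraries lay among the ET1 values, and the groups overlapped. The means were 6824 ± 1238 CPM in ET1, against 7397 ± 1993 CPM in untreated libraries (SD, n = 3 each), with a log2 fold change of −0.12 (SE 0.32; edgeR adjusted p = 0.876). The sign followed the scaling and the libraries. It was 0.23 with library sizes alone and 0.15 without untreated library 3.

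miR-29c-3p, the guide arm a single base away from miR-29a-3p, had 65, 84 and 81 tags in ET1 libraries, against 123, 121 and 115 tags in untreated libraries. The raw tags did not overlap, but the ET1 libraries had fewer miRNA tags in all. After TMM scaling the row stood at 12.2, 17.7 and 14.2 CPM in ET1, against 17.3, 17.1 and 19.3 CPM in untreated libraries, and ET1 library 2 lay among the untreated ones. The log2 fold change was −0.28 (SE 0.42; edgeR adjusted p = 0.769), or 0.072 with library sizes alone.

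miR-29b-3p, the member with the nuclear ending, had 34, 49 and 38 tags in ET1 libraries, against 30, 29 and 40 tags in untreated libraries. It was the one tested row of the family with a positive value, at 7.80 ± 2.21 CPM in ET1, against 5.02 ± 1.47 CPM in untreated cells (log2 fold change 0.64, SE 0.47; edgeR adjusted p = 0.505). After TMM scaling untreated library 3 (6.71 CPM) lay above ET1 libraries 1 and 3 (6.39 and 6.67 CPM), so the groups overlapped. That overlap depended on the scaling. Scaled to known miRNA tags alone, every ET1 library was higher than any untreated library. The values were then 7.35, 11.18 and 7.87 CPM in ET1, against 3.70, 3.35 and 6.41 CPM in untreated libraries. With the share of known miRNA tags as a covariate the log2 fold change was −0.11. At 29 to 49 tags per library, counting error adds to the spread between libraries.

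miR-29b-1-5p, the passenger arm of Mir29b-1, was the only 5p row with many tags. It stood at 329, 289 and 528 CPM in ET1 libraries 1, 2 and 3, against 697, 472 and 395 CPM in untreated libraries 1, 2 and 3. ET1 library 3 was higher than untreated libraries 2 and 3, and the groups overlapped. The log2 fold change was −0.45 (SE 0.39; edgeR adjusted p = 0.588).

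miR-29c-5p, the passenger arm of Mir29c, stood furthest below untreated cells on the log2 scale. Its 79, 102 and 143 tags in ET1 libraries, against 230, 249 and 232 tags in untreated libraries, corresponded to 14.8, 21.6 and 25.1 CPM in ET1, against 32.4, 35.3 and 38.9 CPM in untreated libraries. All 3 ET1 libraries were lower than any untreated library, in tags and after TMM scaling. Scaled to known miRNA tags alone, ET1 library 3 (29.6 CPM) lay above untreated libraries 1 and 2 (28.4 and 28.8 CPM). The TMM-scaled means were 20.5 ± 5.21 CPM in ET1 and 35.5 ± 3.25 CPM in untreated cells. The log2 fold change of −0.79 (SE 0.44) did not pass the test (edgeR adjusted p = 0.366). The log2 value stayed negative in each of 14 alternative fits, between −1.26 and −0.43, and its lowest adjusted p among them was 0.270.

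miR-29b-2-5p, from the neighbouring Mir29b-2, had 129, 58 and 74 tags in ET1 libraries, against 145, 155 and 93 tags in untreated libraries. ET1 library 1 was the highest of the 6 after scaling, at 24.2 CPM, while ET1 libraries 2 and 3 were the lowest (12.3 and 13.0 CPM). The log2 fold change was −0.23 (SE 0.46; edgeR adjusted p = 0.840), and it was 0.15 with library sizes alone. miR-29a-5p had 2, 5 and 1 tags in ET1, against 5, 8 and 0 tags in untreated libraries. It did not pass the expression filter and was not tested. The count of 0 in untreated library 3 allows up to 0.503 CPM after TMM scaling.

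Of the 7 rows, 6 passed the filter on low counts and 0 of these 6 passed the threshold (edgeR adjusted p under 0.05), where 1.79% of the 616 tested miRNAs did (1.3% higher and 0.487% lower in ET1). At an unadjusted p under 0.05 the family also gave 0 of 6, against 18.3% of all. By adjusted p none passed by DESeq2, limma-voom or the other alternatives. With all rows fitted together miR-29c-5p had an unadjusted edgeR p of 0.020 (adjusted 0.357), where 333 of 3193 rows were under 0.05. In 1 of 6 (miR-29c-5p, lower) the groups did not overlap after TMM scaling, against 23.5% of all tested miRNAs (12.5% higher and 11% lower in ET1). Scaled to known miRNA tags alone, miR-29c-5p overlapped and miR-29b-3p was higher in every ET1 library. The share of all miRNAs without overlap was not counted for that scaling. The filter can favour rows that are high in a single group, so the 6 are not all members. Their log2 fold changes were negative in 5 and positive in 1, where 49.5% of all tested miRNAs were negative. With library sizes alone 2 were negative (miR-29b-1-5p at −0.061 and miR-29c-5p at −0.43) and 4 positive. With standard errors of 0.32 to 0.47, log2 changes of that size were not detectable.

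**Figure D3:**
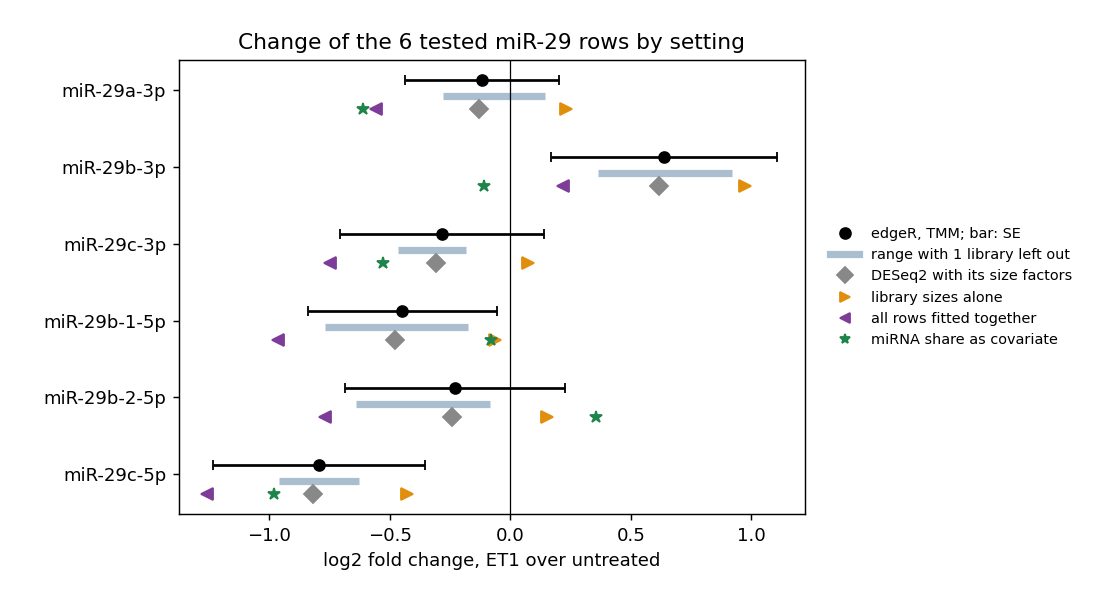
Log2 fold change of ET1 over untreated cells for the 6 tested miR-29 rows (x axis). Black points with SE are the edgeR fit with TMM scaling, pale bars the range with 1 library left out, and the other symbols further fits. miR-29a-3p lies between −0.61 and 0.23 over these fits and miR-29c-5p between −1.26 and −0.43.

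Ratios between rows of the same library need no scaling between libraries, and the rows of the 3 stems divided differently between the arms. The 3p counts carry the doubt given above on their division, and the miR-29b-3p row also draws on both loci, so the arm shares describe rows as counted. In miR-29a the 3p arm took nearly everything. The 5p share of miR-29a tags was at most 0.0180% (Wilson 95% interval 0.00912% to 0.0355%, untreated library 2). In miR-29b it was the reverse, with 5p shares of 98.2%, 96.7% and 98.8% in ET1 libraries, against 99.4%, 99.2% and 98.4% in untreated libraries. The 5p arm of miR-29b-1 alone outnumbered miR-29b-3p, the annotated guide from both loci, by 27.7 to 162 times. miR-29c was nearer to even, with 5p shares of 54.9%, 54.8% and 63.8% in ET1 libraries, against 65.2%, 67.3% and 66.9% in untreated libraries.

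Among 290 stems of known miRNAs with at least 100 tags over both arms, 138 had more 3p and 152 more 5p tags. A median of 96.2% of a stem's tags lay in its larger arm. miR-29a, with 99.99% in the 3p arm, was exceeded in the lean towards 3p by 4 stems. Of the stems with more 5p tags, 61 of 152 leaned further that way than miR-29b, with 98.8% of its tags over the 6 libraries in the 5p arms. miR-29b was not itself among the 290, since its 5p rows carry locus numbers that the 3p row lacks. Its 5p rows from both loci were summed against the shared 3p row. miR-29c had 63.7% of its tags in the larger arm, and 28 of the 290 stems (9.66%) were more even.

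The miR-29c arm ratio did not overlap between the groups, but did not pass the test. The log2 ratio of 3p to 5p tags was −0.28, −0.28 and −0.82 in ET1 libraries 1, 2 and 3, against −0.90, −1.04 and −1.01 in untreated libraries. The untreated libraries lay close together, and ET1 library 3 lay next to them. The difference of 0.52 in log2, or 1.44-fold more 3p per 5p tag in ET1, had an exact permutation p = 0.1 (two-sided), the smallest that 3 against 3 libraries allow, and 0.233 adjusted over the 7 ratios tested. Without 1 library it ran from 0.43 to 0.70.

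For miR-29b the log2 ratio of 3p to miR-29b-1-5p averaged −5.58 ± 0.75 in ET1, against −6.67 ± 0.75 in untreated cells (SD, 3 libraries a group), with an exact permutation p = 0.2 (adjusted 0.28). That of 3p to miR-29b-2-5p was −1.03 ± 0.84 in ET1 and −1.95 ± 0.65 in untreated cells, with the same p-values, and in both the groups overlapped. For miR-29a the ratio rested on 0 to 8 tags of the 5p arm. Its difference of −0.39 (exact permutation p = 0.9, adjusted 0.9) became 1.23 when no tags were added to the counts, which leaves out untreated library 3.

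Between guide arms, no ratio passed the test. miR-29c-3p had 1.90, 1.71 and 2.12 tags per tag of miR-29b-3p in ET1 libraries, against 4.05, 4.12 and 2.85 in untreated libraries. The groups did not overlap. The mean log2 ratio was 0.93 ± 0.16 in ET1 and 1.86 ± 0.30 in untreated cells, a difference of −0.93. Its exact permutation p was 0.1 (adjusted 0.233), at the limit of the design. With 1 library left out the difference ran from −1.10 to −0.84. The ratio rests on 29 to 49 miR-29b-3p tags per library. Counting error therefore enters each value, and an SD of 3 libraries gives the spread only roughly.

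miR-29b-3p relative to miR-29a-3p gave log2 ratios of −10.30, −9.29 and −9.73 in ET1 libraries, against −10.49, −10.56 and −10.48 in untreated libraries, again without overlap. The difference was 0.74 (exact permutation p = 0.1, adjusted 0.233; 0.49 to 0.998 with 1 library left out). The SD was 0.51 among ET1 and 0.041 among untreated libraries. The untreated ratios rest on 30, 29 and 40 miR-29b-3p tags, so their closeness was not taken as a steady ratio. miR-29c-3p relative to miR-29a-3p differed by −0.20 with overlapping groups (exact permutation p = 0.5, adjusted 0.583), and by 0.068 without ET1 library 1. These 3 ratios share rows with each other, so they are not separate results.

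**Figure D4:**
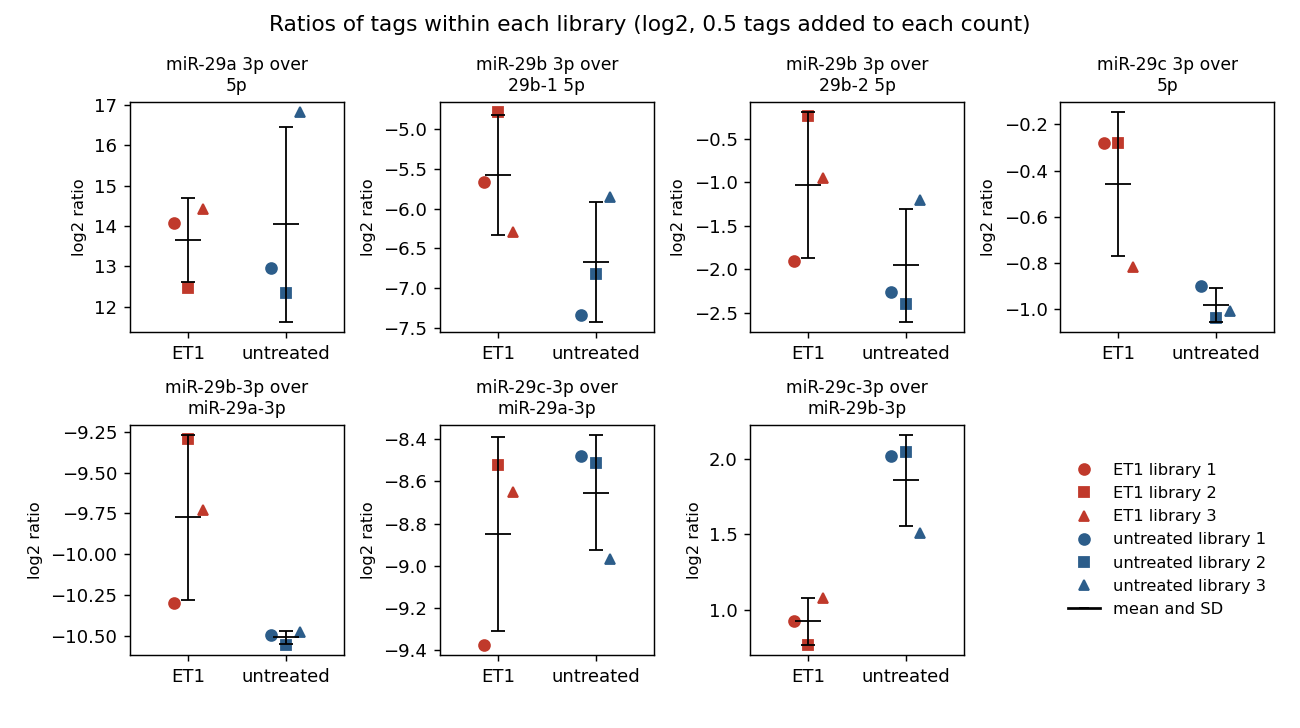
Log2 ratios of tags within each library for the 4 arm ratios and the 3 ratios between 3p rows. Each panel has its own y axis, with ET1 libraries left of untreated libraries, and black marks give the mean and SD of 3 libraries. The groups do not overlap for miR-29c 3p over 5p, miR-29b-3p over miR-29a-3p and miR-29c-3p over miR-29b-3p, each with an exact permutation p of 0.1.

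The rows that belong to a single locus showed that chromosome 1 gave few of the tags. miR-29b-2-5p, miR-29c-3p and miR-29c-5p together made up 0.599%, 0.747% and 0.827% of the tags of single-locus rows in ET1 libraries, against 1.01%, 1.09% and 0.726% in untreated libraries, with overlap. Since the miR-29a-3p row decides this share, the uncertainty of its division from miR-29c-3p carries over. Of miR-29b 5p tags, miR-29b-2-5p held 2.40% to 6.86% in ET1 and 2.85% to 4.45% in untreated libraries. Aligned at their offset of 1 base, miR-29b-1-5p and miR-29b-2-5p differ at 2 of 21 shared bases, so their division is also uncertain.

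Rows cut from neighbouring precursors did not keep a fixed proportion. On chromosome 6, miR-29b-1-5p had 0.0402, 0.0442 and 0.0920 tags per tag of miR-29a-3p in ET1 libraries, against 0.112, 0.0750 and 0.0407 in untreated libraries. The groups overlapped, and the lowest value of each was nearly the same. On chromosome 1, miR-29b-2-5p had 1.63, 0.571 and 0.519 tags per tag of miR-29c-5p in ET1, against 0.631, 0.623 and 0.402 in untreated libraries, with ET1 library 1 apart from the other 5. Neither ratio was tested. Such shifts need not be particular to these rows. Counts of any 2 libraries of a group also differed beyond sampling error, with a chi-square of 402 to 1477 per degree of freedom.

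The miRNAs whose levels followed the summed 3p arms most closely over the 6 libraries were miR-17-3p, miR-466f and miR-434-3p. Likeness was the root mean square distance of log2 CPM centred over the libraries, among 394 miRNAs with a mean of at least 10 CPM. The distance was 0.125 for miR-17-3p, the passenger arm of a proliferation-associated miRNA, 0.190 for miR-466f, of a repeat-rich rodent cluster, and 0.210 for miR-434-3p, an imprinted miRNA. The 3 were picked from the 394 by these same values, group difference included. Log2 fold changes near that of the summed 3p arms therefore follow from the choice and are no test of it. They were −0.0011, 0.024 and −0.057 with TMM scaling, and 0.35, 0.38 and 0.30 with library sizes alone.

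Other miRNAs known from work on fibrosis were set beside miR-29, in lists chosen with earlier results of these data known. Of 15 that lower collagen or TGF-β pathway mRNAs, 13 were tested and 0 passed, against 1.79% of all 616 tested miRNAs. Their values were negative in 11 and positive in 2, where 49.5% of all were negative. The median log2 fold change was −0.68, against 0.0058 over all tested miRNAs. Several of the 13 belong to the miR-30 or miR-200 families, so their signs are not separate results. With library sizes alone 9 of the 13 were negative, with a median of −0.30 against 0.37 over all. miR-133a-3p of this list passed with DESeq2 (−1.55; DESeq2 adjusted p = 0.0074), without a filter (−1.59; edgeR adjusted p = 0.036) and with a replicate block (−1.55; edgeR adjusted p = 0.045). let-7d-5p, the most abundant, averaged 12251 ± 1355 CPM in ET1, against 21878 ± 7179 CPM in untreated cells (−0.84; edgeR adjusted p = 0.170), and passed without untreated library 3. miR-26a-5p, which targets collagen and CTGF mRNAs, averaged 6391 ± 470.4 CPM in ET1, against 10273 ± 2124 CPM in untreated cells (−0.68; edgeR adjusted p = 0.246).

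Of 7 miRNAs known to promote fibrosis, all were tested, 1 rose and none fell, with 4 positive and 3 negative values and a median log2 fold change of 0.67, against 0.0058 over all tested miRNAs, of which 1.3% rose and 0.487% fell. With library sizes alone 6 were positive, the median was 1.04 and 2 passed. That scaling put the median of all 616 tested miRNAs at 0.37, and 41 of them passed, 38 as higher. With all rows fitted together 4 were positive, the median was 0.16 against −0.46 over the known miRNAs, and 0 passed. In that edgeR fit 0 of all 3193 rows passed (333 at an unadjusted p under 0.05). The member that rose was miR-433-3p, at 1463 ± 260.1 CPM in ET1 against 495 ± 135 CPM in untreated cells (1.56; edgeR adjusted p = 0.045), which passed with 1 library left out only in the fits without ET1 library 1 or untreated library 3. miR-214-3p passed with library sizes alone (1.38; edgeR adjusted p = 0.045) and stood at 1.03 with TMM scaling (edgeR adjusted p = 0.106). miR-155-5p passed as lower when no filter was used (−1.49; edgeR adjusted p = 0.014) and stood at −1.41 with it (edgeR adjusted p = 0.086). miR-34a-5p averaged 23955 ± 5424 CPM in ET1, against 31139.9 ± 11304 CPM in untreated cells (−0.38; edgeR adjusted p = 0.582), and miR-21a-5p, the best known fibrosis-promoting miRNA, 12384 ± 1392 CPM in ET1, against 14463 ± 3478 CPM in untreated cells (−0.22; edgeR adjusted p = 0.738). With library sizes alone the value of miR-34a-5p was 0.0039 and that of miR-21a-5p was 0.15.

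The authors' deposited table, which pooled the 3 libraries of each group, gave other calls for the same rows. It listed miR-29a-3p as up with a log2 ratio of 0.25 and a q-value of 0, and miR-29b-3p as up with 0.99 and a q-value of 2.04e-07. It listed miR-29c-5p as down with −0.44 and a q-value of 1.27e-06, and miR-29b-1-5p as down with −0.098 and a q-value of 8.33e-06. In the authors' deposited table the other 3 rows had q-values of 0.102 to 0.234. Its log2 ratios were higher by 0.697 than those of its own pooled counts, which for miR-29a-3p were 107260 in ET1 and 146224 in untreated cells, a log2 ratio of −0.45. The authors' deposited table listed 76.8% of its 1800 rows as up, and its pooling leaves the variation among libraries out of the q-values.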

How the data were processed

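Per the file headers, the authors deposited tag counts for 61628 rows in 6 libraries, and beside each count a value headed TPM that the values show to be an RPM (tags per 1000000 of all rows). Bowtie2 and mm10 are named per the submitters' processing notes. The databases, mismatches and treatment of tags with several matches are not given in the sources used here. The authors deposited a comparison of pooled counts with group mean RPM, log2 ratios, p-values and q-values; their settings are not given. Rows for exon, intron, intergenic and repeat tags (44.3% to 61.4% of a library) entered no fit.

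Known miRNA counts, as deposited, went into edgeR 4.0.16 (R 4.3.3), with TMM scaling, the default filter (minimum count 10), a robust two-sided quasi-likelihood test with the group as the only term, and Benjamini-Hochberg adjustment over 616 miRNAs with a threshold of 0.05. The SE is the log2 fold change over the square root of F. Log2 ratios of tags (0.5 added to each count) were compared by exact permutation, adjusted over 7. Counts of any 2 libraries of a group differed beyond sampling error (chi-square 402 to 1477 per degree of freedom). Pipelines were tested on simulated data. Every miR-29 row was named, with the 3 miRNAs nearest in pattern, and the 2 most abundant of each matrix list. Matrix list members that passed in any fit of all 6 libraries, and the marker rows, were named after their values were seen. Fits with 1 library left out were not searched for further list members. Members and lists were chosen with earlier results of these data known. DESeq2 1.42.0 and limma 3.58.1 (voom) were alternatives, beside other scalings, filters, covariates, a replicate block and leaving out each library. The ratios between neighbouring precursors were added after the data were seen.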

Additional observations from a re-analysis of the deposited data

How the results depend on the processing

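No miR-29 row passed in any of the alternatives. miR-29b-1-5p and miR-29c-5p kept their sign in each. Scaling by library sizes alone put the median of all tested miRNAs at 0.37, and with it miR-29a-3p was at 0.23, miR-29b-2-5p at 0.15 and miR-29c-3p at 0.072. With the share of known miRNA tags as a covariate miR-29b-2-5p was at 0.36 and miR-29b-3p at −0.11. All rows fitted together moved the median to −0.46 and reversed none. Without 1 library the ranges were −0.28 to 0.15 for miR-29a-3p, positive only without untreated library 3, −0.77 to −0.17 for miR-29b-1-5p, −0.64 to −0.084 for miR-29b-2-5p, 0.36 to 0.92 for miR-29b-3p, −0.46 to −0.18 for miR-29c-3p and −0.96 to −0.63 for miR-29c-5p. miR-29b-3p could not be fitted with at least 10 CPM in 3 libraries, since it did not pass that filter. The log2 ratio of the family's mean share, ET1 over untreated, was 0.21, −0.38 as a share of all tags, −0.14 in CPM after TMM scaling, and 0.063 to 0.50 without 1 library. The miR-29a arm ratio was 1.23 with no tags added and −1.24 to 0.995 without 1 library, and miR-29c-3p over miR-29a-3p ran from −0.36 to 0.068. The other 5 ratios kept their sign in all 9 alternatives each.

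The count of all known miRNAs past the threshold, 11 in edgeR, was 39 with DESeq2, 41 with library sizes alone, 37 without a filter, 5 in limma-voom, and 0 in edgeR with the miRNA share as a covariate, where 39 had an unadjusted p under 0.05. It was also 0 in edgeR on all 3193 rows, 333 of which had an unadjusted p under 0.05. Without 1 library it ran from 2 (without ET1 library 3) to 30 (without ET1 library 1), with 5 without untreated library 2 and 25 without untreated library 3. The cause was not tested. With the replicate number as a block it was 21, and miR-29c-5p stood at −0.82 (edgeR adjusted p = 0.284) and miR-29a-3p at −0.097. Deviations of same-numbered libraries correlated at 0.33, 0.070 and 0.34 over 399 miRNAs, each the highest for its library, but with 1 of the 3 under 0.1 the numbers were not taken to pair the libraries. Exact sign-flip tests of the ratios within numbers gave p of 0.25 to 1, and 0.25 is the smallest 3 pairs allow. Rows under 50 tags, miR-29b-3p and miR-29a-5p, are limited by counting.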

Other observations

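The table also lists an Rfam row for the mir-29 precursor family, apart from the mature rows. It held 481, 759 and 2580 tags in ET1 libraries 1, 2 and 3, against 865, 951 and 684 tags in untreated libraries 1, 2 and 3. In RPM (tags per 1000000 of all rows) that is 26.5, 39.1 and 132 in ET1, against 41.4, 50.1 and 33.0 in untreated libraries. ET1 library 3 stood apart, and the other 2 ET1 libraries lay within or below the untreated range. Fitted with all rows that name a small RNA, the log2 fold change was 0.43 (SE 0.64; edgeR adjusted p = 0.928 over 3193 rows). The same ET1 library 3 had the most miR-29b-1-5p tags of its group (3009, against 1751 and 1370 in ET1 libraries 1 and 2). Untreated libraries 1 and 2 had more miR-29b-1-5p tags still (4946 and 3331), so the 2 rows did not follow each other over the 6 libraries.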
